A study of Mus musculus with 4 samples.

Results

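The 39 Hox genes of the mouse, those whose RefSeq symbol on mm10 is Hoxa, Hoxb, Hoxc or Hoxd followed only by a number, were examined in liver DNA. They lie in 4 clusters, HoxA with 11 genes, HoxB with 10, HoxC with 9 and HoxD with 9, and make up 39 of the 27496 gene regions that could be measured. A gene region here is the gene body with 2 kb either side. Choosing the genes by symbol used no methylation value.

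DNA methylation had been measured by reduced representation bisulfite sequencing, which reads cytosines near the cut sites of restriction enzymes, here TaqI and MspI. The liver of C57BL6/N mice of 6 weeks was sampled, and 2 libraries represent the Pnpla7+/+ genotype (WT) and 2 the Pnpla7-/- genotype (KO). Both genotypes share strain, age and tissue, and no other allele or agent is named. How the Pnpla7 allele was made, the sex of the animals and whether each library came from a separate animal are points on which the sources used here give nothing, so p-values measure only the spread between these libraries, which may be technical. Pnpla7 encodes a lysophospholipase of the endoplasmic reticulum, and the design asks how liver methylation differs without it.

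Hox genes encode homeodomain transcription factors that set position along the head-to-tail axis of the embryo. Their order on the chromosome follows their order of expression along that axis: low-numbered genes are used towards the head, high-numbered genes towards the tail and in the ends of the limbs. Genes with the same number in different clusters are paralogs. In tissues where they are silent, Hox clusters are a classic target of Polycomb proteins, which repress chromatin through histone marks, and their many CpG islands are usually kept free of DNA methylation.

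The files held from 50413170 to 60535892 reads over cytosines per library. At 1600691 CpGs every library had at least 10 reads, with a median of 21 reads in WT replicate 1 and 25 in each of the others. Mitochondrial cytosines in CpGs, which are close to unmethylated, read as methylated in 0.395% to 0.442% of reads. This share is taken as a guide to the background of the assay, which was not measured at nuclear CpGs. Where 4 values stand together, the order is WT replicate 1, WT replicate 2, KO replicate 1, KO replicate 2. At Pnpla7 itself 218, 229, 224 and 236 CpGs were listed. Over the 165 of them that were analysed, 32.0%, 28.7%, 28.8% and 30.05% of reads were methylated. These values do not check the knockout, since the deleted part is not named. As a check of the labelled tissue, the 9 hepatocyte genes had a median WT level of 35.6% and the 6 leukocyte genes one of 67.5%, but both lists were mixed. Of the hepatocyte genes Alb, Apoa1, Apoa2 and Apob lay between 12.6% and 16.7%, and Tat (35.6%), Hnf4a (51.3%), Cyp2e1 (52.8%), Serpina1e (63.6%) and Ttr (71.2%) were higher. Of the leukocyte genes Ptprc (60.4%), Laptm5 (74.6%), Spi1 (75.9%) and Cd3e (77.6%) were high, and Cd79a (13.8%) and Coro1a (30.2%) were not. No gene of either list was called between the genotypes by the test described further on, beside 0% of all gene regions tested. At an unadjusted p under 0.05 there were 3 of the 9 hepatocyte genes, and 0 of the 6 leukocyte genes. The share over all gene regions tested was 4.8%. Tat, a gene of amino acid breakdown, measured 35.6% ± 0.771 in WT and 48.8% ± 6.24 in KO, Cyp2e1 52.8% ± 7.62 and 40.6% ± 7.70, and Hnf4a 51.3% ± 1.89 and 55.4% ± 1.93 (SD, n = 2 each). Their part in the Hox values was not tested. RNA was not measured.

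Sequence upstream of 3 Hox genes is shown because these windows span the range of methylation and of CpG density found at Hox starts. Each run is the 250 bases before the RefSeq start of the gene on GRCm38.p6, the assembly also called mm10, 5′ to 3′ on the gene's strand, with every CpG dinucleotide in capitals. Hoxd4, a gene of the hindbrain and neck, is at chr2:74721728-74721977 on the forward strand. Hoxd1, the gene at the anterior end of its cluster, is at chr2:74762730-74762979 on the forward strand, and Hoxa13, which acts in digits and the urogenital tract, is at chr6:52260881-52261130 on the reverse strand.
Hoxd4: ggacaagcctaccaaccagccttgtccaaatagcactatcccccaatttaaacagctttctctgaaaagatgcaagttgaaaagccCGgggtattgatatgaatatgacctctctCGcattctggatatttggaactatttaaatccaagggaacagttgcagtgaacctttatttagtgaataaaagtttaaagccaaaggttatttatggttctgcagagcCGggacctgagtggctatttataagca
Hoxd1: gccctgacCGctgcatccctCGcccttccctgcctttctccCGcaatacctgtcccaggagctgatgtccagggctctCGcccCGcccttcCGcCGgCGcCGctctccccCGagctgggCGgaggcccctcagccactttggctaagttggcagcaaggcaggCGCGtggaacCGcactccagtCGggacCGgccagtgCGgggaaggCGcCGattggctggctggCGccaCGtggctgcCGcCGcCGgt
Hoxa13: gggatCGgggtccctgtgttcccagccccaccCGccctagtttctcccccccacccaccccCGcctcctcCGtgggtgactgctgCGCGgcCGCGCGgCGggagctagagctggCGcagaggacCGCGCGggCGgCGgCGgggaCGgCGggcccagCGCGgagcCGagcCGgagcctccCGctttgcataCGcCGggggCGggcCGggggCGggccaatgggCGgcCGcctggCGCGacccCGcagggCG

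The Hoxd4 run holds 3 CpGs, and all 3 were analysed. Over the 4 libraries their mean methylation ranged from 23.7% to 36.9%. The Hoxd1 run holds 24 CpGs, all analysed, and none had a mean above 4.06%. The Hoxa13 run holds 35 CpGs, of which 10 were analysed, with means from 0% to 2.28%. Thus the CpG-poor window was the methylated one of the 3.

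Across the Hox gene regions methylation was low in every library. The unweighted mean over 3641 analysed CpGs was 5.44% and 5.48% in the WT libraries, and 5.85% and 4.98% in the KO libraries. KO replicate 1 was the highest library and KO replicate 2 the lowest, so the genotypes overlapped. CpGs of all other gene regions averaged 38.8%, 38.6%, 38.9% and 38.9% in the same order. Of the Hox CpGs 95.5% were below 20% on average, 164 lay from 20% to 80%, and 1 was above 80%. Elsewhere in gene regions 52.7% were below 20% and 31.5% above 80%. The contrast between Hox CpGs and others is a description with no test, because the same 4 libraries gave both.

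The 4 clusters kept one order in every library, within a narrow range. HoxB was highest, with 6.92% and 6.75% in the WT libraries and 7.23% and 6.56% in the KO libraries over 845 CpGs. HoxA followed over 1108 CpGs with 5.62% and 5.75% in WT and 6.49% and 5.18% in KO. Then came HoxC over 663 CpGs, with 5.36% and 5.29% in WT and 5.65% and 4.82% in KO. HoxD was lowest over 1025 CpGs, with 4.05% and 4.26% in WT and 4.14% and 3.58% in KO. Within each of the 4 libraries the order was HoxB, HoxA, HoxC, HoxD, although the ranges of HoxA and HoxC over libraries overlapped. These means are not matched for CpG density, counted as listed CpGs within 250 bp. Of the CpGs 66.7% in HoxA, 55.0% in HoxB, 36.8% in HoxC and 68.6% in HoxD had 20 or more. With 0 to 4 the means of HoxC and HoxD were 13.7% and 16.5% in WT, and 16.3% and 15.7% in KO. With 20 or more they were 3.49% and 2.75% in WT, and 2.79% and 2.41% in KO. The part of density in the order was not tested.

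Methylation in most of the genome falls as CpGs become denser, so Hox CpGs were set beside others of like density, counted as listed CpGs within 250 bp. For CpGs with 0 to 4 listed neighbours, the Hox mean was 15.7% ± 1.94 in WT and 17.3% ± 1.42 in KO (SD, n = 2 each, 158 CpGs). The 323647 such CpGs in other gene regions averaged 76.7% ± 0.257 in WT and 77.5% ± 0.153 in KO (n = 2 each). With 5 to 9 neighbours the WT means were 10.02% for 368 Hox CpGs and 69.8% elsewhere, and with 10 to 19 they were 6.15% for 964 Hox CpGs and 38.0% elsewhere. Hox CpGs with few listed neighbours thus carried far less methylation than CpGs near other genes with as few, in all 4 libraries. Unread CpGs are not counted, so few listed neighbours need not mean CpG-poor sequence. The 300 bases around the Hoxb8 start, for example, hold 13 CpGs, of which 4 were listed.

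In the densest class the means were close. With 20 or more neighbours, the 2151 Hox CpGs averaged 3.63%, 3.60%, 3.58% and 3.06% in the 4 libraries, and the 558872 others 3.39%, 3.35%, 3.26% and 3.18%. The Hox mean was the higher one in 3 libraries and the lower one in KO replicate 2. The mean of the others includes some fully methylated CpGs, 1.32% of them above 80%, whereas no dense Hox CpG was. Among dense CpGs below 20%, Hox CpGs averaged 3.25% with a median of 2.24%, and the others 1.11% with a median of 0%. No methylated read was seen in any library at 17.5% of these Hox CpGs and at 52.0% of the others, although the median of reads summed over libraries was similar, 108 and 111. A mean of 5% or more was reached by 21.1% of these Hox CpGs and 4.99% of the others. The Hox mean in this class was 3.37%, 3.38%, 3.37% and 2.86%, against 1.14%, 1.14%, 1.11% and 1.05% elsewhere. Both were above the mitochondrial level of 0.395% to 0.442%, which need not equal the background at dense nuclear CpGs. Dense Hox CpGs below 20% therefore held a low mean level in every library. Over the 4 libraries together, methylated reads were seen at most of these CpGs. The spread over CpGs within single libraries was not measured. The class of 20 or more neighbours has no upper limit, so density within it may differ between Hox and other CpGs.

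**Figure D1:**
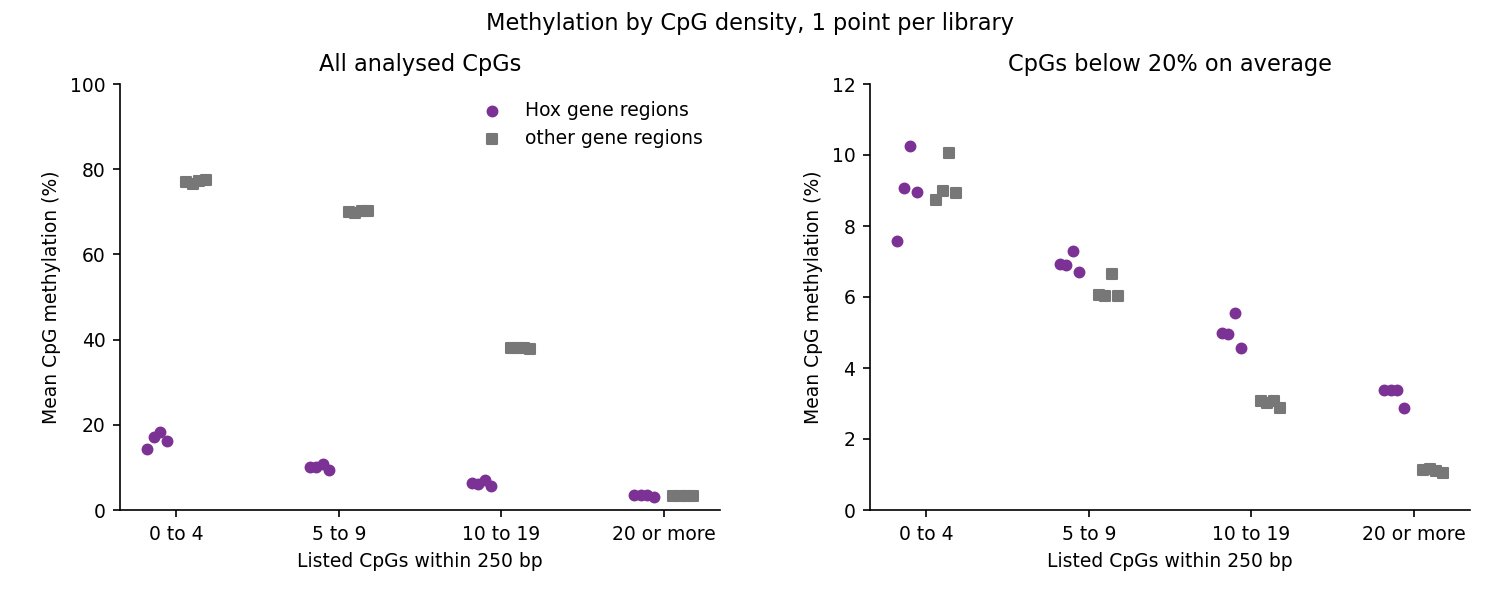
Mean CpG methylation in percent (vertical axes) by the number of listed CpGs within 250 bp (horizontal axis), for Hox gene regions (circles) and other gene regions (squares); each point is 1 of the 4 libraries, in the order WT replicates 1 and 2, KO replicates 1 and 2. Over all analysed CpGs (left) the Hox points lie far below the others until the class of 20 or more neighbours; among CpGs below 20% (right) the Hox points of that class, from 2.86% to 3.38%, lie above the others.

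Gene by gene, the share of methylated reads over a Hox region had a median of 4.96%, against 42.3% over all gene regions, 27.5% of which were below 20%. All 39 Hox regions were below 20%. They ran from 1.83% at Hoxa13 to 15.9% at Hoxb1, with 20 genes under 5%, 15 from 5% to 10% and 4 at 10% or more. Each region rests on 24 to 427 analysed CpGs. Neighbouring regions overlap, so genes share CpGs: RefSeq gives Hoxa3 a span of 44009 bases that takes in Hoxa4, Hoxa5 and Hoxa6.

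Among the genes of the head and neck end, Hoxb1, which patterns the hindbrain, had the highest level of all 39. It measured 15.6% and 16.2% in the WT libraries and 13.2% and 18.5% in the KO libraries, over 24 CpGs. The KO libraries lay on either side of the WT libraries. Its paralog Hoxd1 averaged 2.60%. Hoxd4 averaged 11.3%, the highest of HoxD, with 11.3% and 12.05% in WT and 11.6% and 10.2% in KO. Hoxb3 averaged 9.54% and Hoxa3, needed for the thymus and parathyroid, 8.24%.

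Of the central genes, Hoxa5, which acts in the lung and the neck vertebrae, was the highest of HoxA. It measured 10.5% and 9.98% in WT and 12.7% and 10.7% in KO. Hoxb5 averaged 11.8%, with 12.8% and 10.8% in WT and 11.5% and 12.1% in KO. Hoxd8 was the lowest of HoxD at 2.11% and 2.498% in WT and 2.63% and 1.68% in KO. Central genes thus ran from 2.23% to 11.8%, below the level of Hoxb1 and above that of Hoxa13.

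Among the posterior genes, Hoxa13 was the lowest of all at 1.77% and 1.86% in WT and 1.96% and 1.76% in KO. Its paralogs Hoxc13, Hoxd13 and Hoxb13 averaged 3.32%, 3.26% and 4.59%. Hoxb9, which with its paralogs shapes the ribs, was the lowest of HoxB at 3.25% and 3.30% in WT and 3.28% and 2.83% in KO. In HoxC the extremes were neighbours in the limb and lumbar group: Hoxc10 at 8.50% and 7.86% in WT and 7.68% and 8.75% in KO, and Hoxc11 at 2.70% and 2.87% in WT and 2.80% and 2.25% in KO. The other posterior genes lay between Hoxa13 and Hoxc10.

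As a description of the family, the median level was lower in posterior genes than in anterior and central ones. Paralog groups 1 to 4 had a median of 5.98% over 12 genes, groups 5 to 8 of 5.92% over 11, and groups 9 to 13 of 3.34% over 16. The median was highest in group 5 at 10.96% over 3 genes and lowest in group 11 at 2.85% over 3. Spearman's rho between paralog number and level was -0.52 over the 39 genes, and -0.38 with gene bodies alone. Single genes departed from this order, such as posterior Hoxc10 at 8.20% and anterior Hoxd1 at 2.60%. Neighbouring genes share CpGs and all share the same 4 libraries, so no p-value is given. The genes were not matched for CpG density, and its part in this order was not tested.

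**Figure D2:**
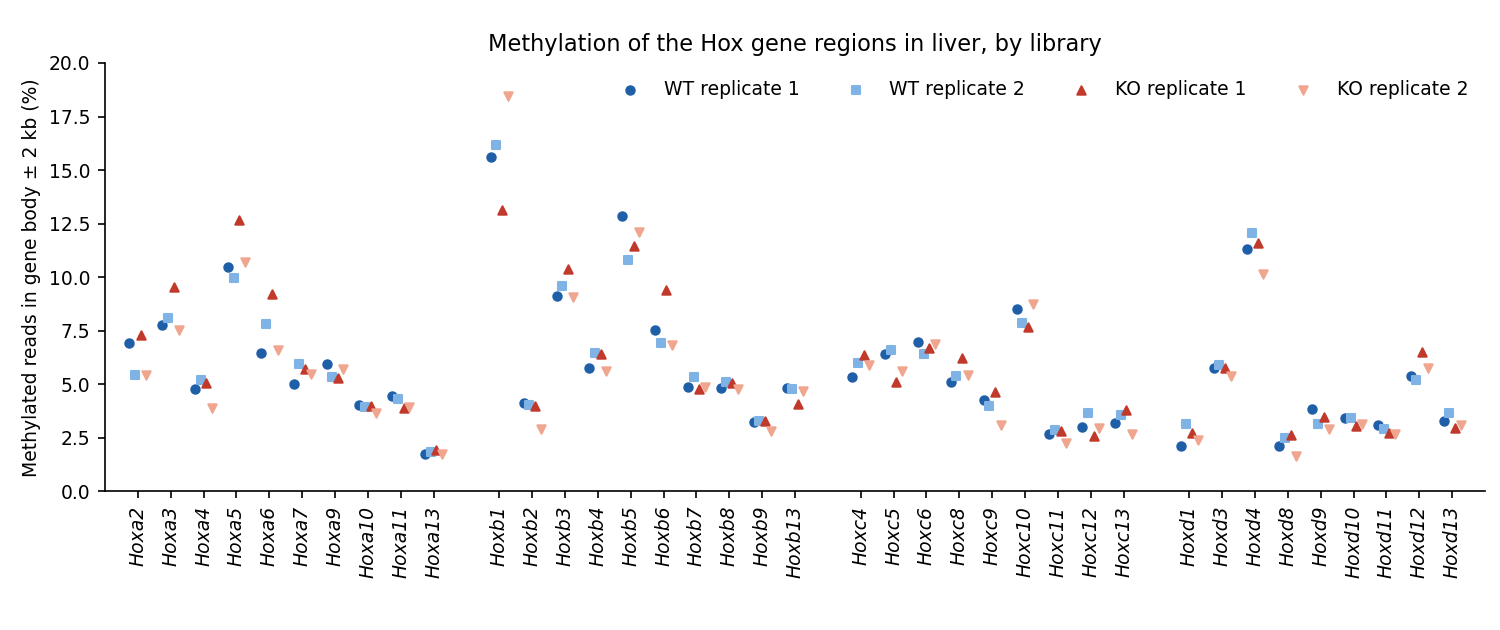
Share of methylated reads in percent (vertical axis) over the gene body and 2 kb either side of 38 of the 39 Hox genes (horizontal axis), ordered by cluster and paralog number; each marker is 1 library, circles and squares for WT replicates 1 and 2, upward and downward triangles for KO replicates 1 and 2. All values lie below 20%; Hoxb1, Hoxb5, Hoxd4 and Hoxa5 stand highest, Hoxa13 lowest, and the genotypes intermingle.

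Along the chromosome low methylation ran through each cluster and differed between its ends. In tiles of 1 kb with at least 3 analysed CpGs, 187 of the 206 Hox tiles (90.8%) were below 20%, against 19.2% of all tiles, and none was above 80%, against 53.2% of all tiles. The longest unbroken series of measured tiles below 20% covered 38 kb over Hoxa9 to Hoxa13, 87 kb over Hoxb8, Hoxb9 and Hoxb13, 73 kb over Hoxc8 to Hoxc13, and 47 kb from Hoxd13 into Hoxd3. Each of these included the group 13 gene. Tiles without enough CpGs are skipped in these series, and in HoxB few were measured between Hoxb9 and Hoxb13.

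Beyond the group 13 gene the low level went on. In the first 10 kb the mean over libraries was 3.51% past Hoxa13 (38 CpGs), 3.16% past Hoxb13 (29), 3.62% past Hoxc13 (18) and 6.16% past Hoxd13 (89). Past Hoxd13 lies Evx2, a homeobox gene of the same ancestral cluster, whose region was at 4.11% ± 0.599 for WT and 4.22% ± 0.0473 for KO (SD, n = 2 each). In the next 10 to 50 kb the mean was 13.4% past Hoxa13, 42.2% past Hoxb13, 24.6% past Hoxc13 and 8.19% past Hoxd13. At the opposite end the first 10 kb averaged 31.0% past Hoxb1 (5) and 13.02% past Hoxc4 (10), and no CpG past Hoxd1 had enough reads. From 10 to 50 kb at that end the means were 55.8%, 9.89% and 60.1% for HoxB, HoxC and HoxD. HoxC was thus the lowest of these 3 clusters in that bin. Its CpGs there had a median of 14 neighbours, against 5 for HoxB and 4 for HoxD. From 50 to 100 kb HoxD, at 22.4%, was lower than HoxC, at 31.6%, and HoxB was at 69.3%. The part of CpG density in these means was not tested. The few CpGs in the first bins limit their precision.

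**Figure D3:**
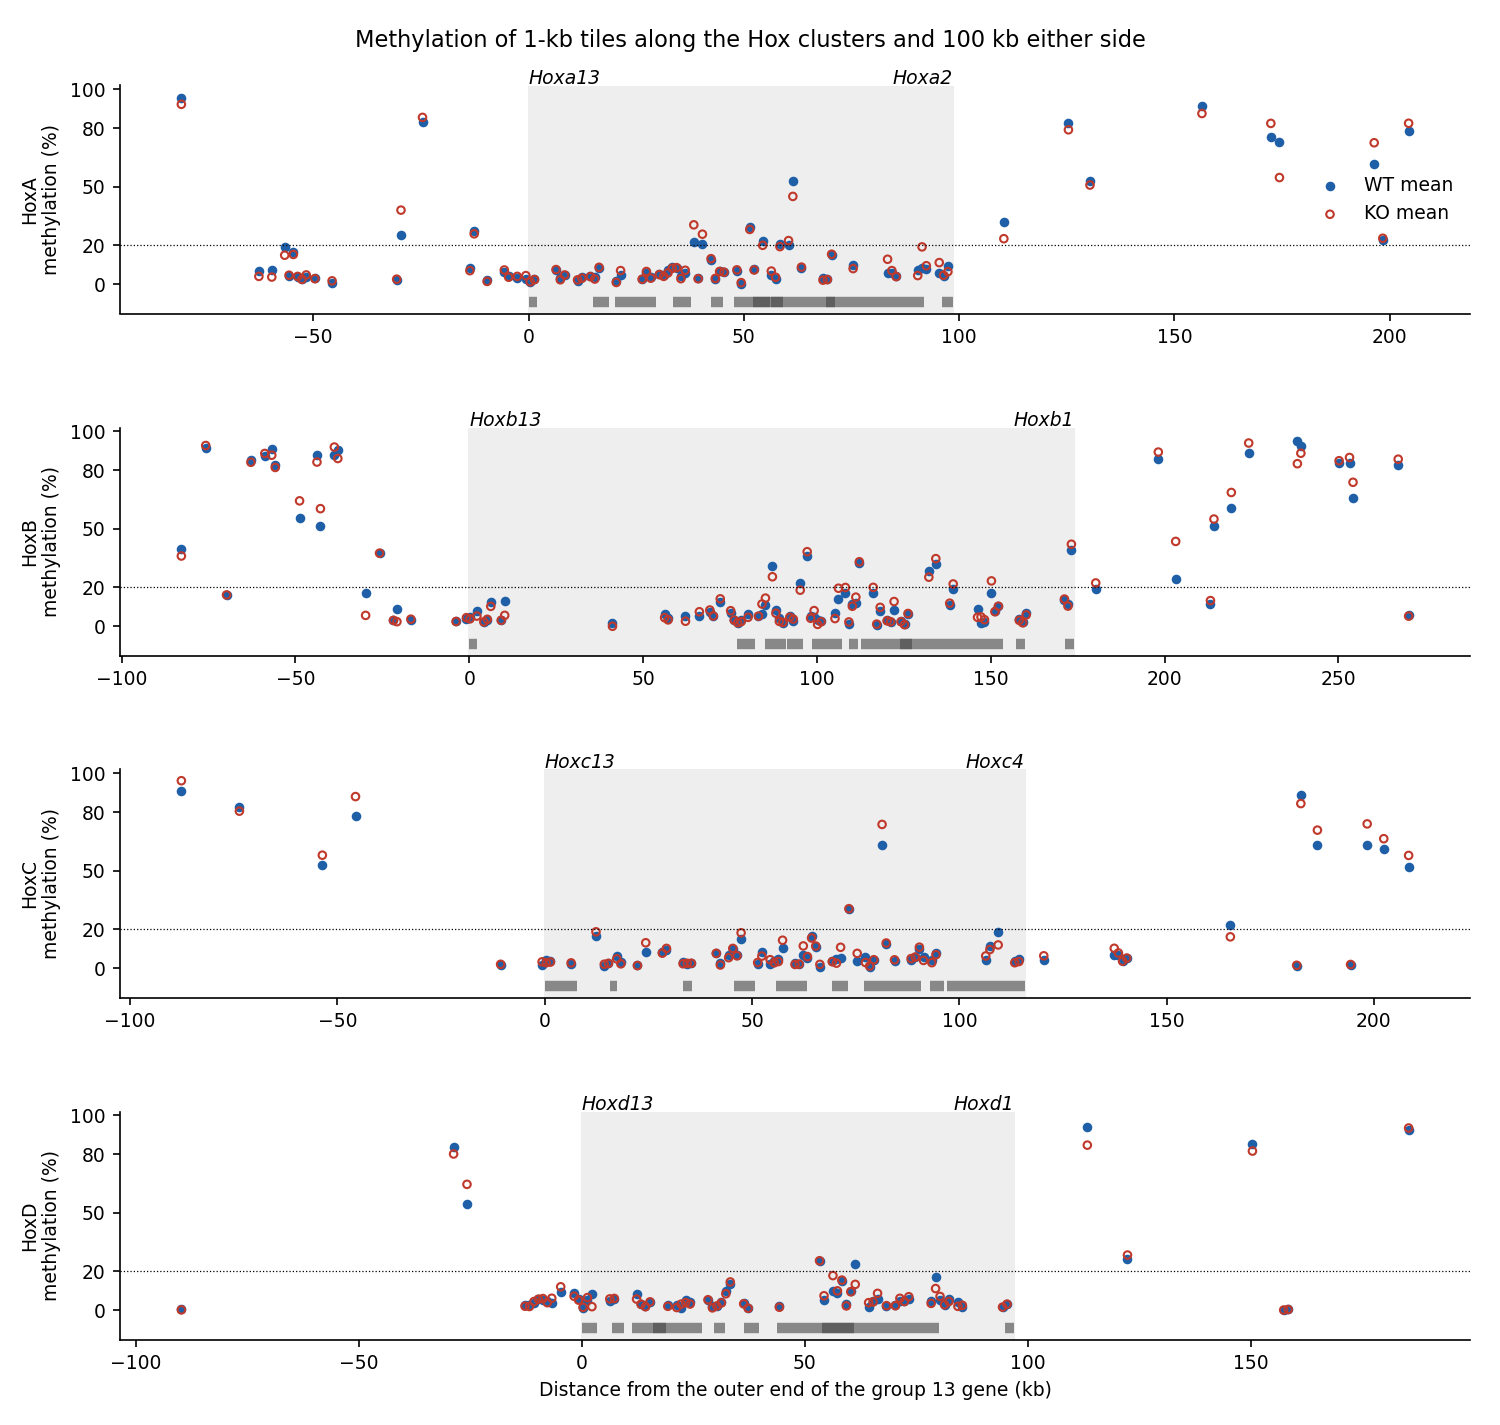
Methylation in percent (vertical axes) of 1-kb tiles along the 4 clusters and 100 kb either side, against distance in kb from the outer end of the group 13 gene (horizontal axis); filled points are WT means and open circles KO means of 2 libraries, grey shading is the span from first to last Hox gene, dark bars are Hox genes, and the dotted line is 20%. Tiles inside the shading lie mostly below 20%, with scattered higher tiles towards the middle and anterior part of HoxA and HoxB, and WT and KO points largely coincide.

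The exceptions were 19 tiles of 20% to 80%, 9 in HoxB, 7 in HoxA, 2 in HoxC and 1 in HoxD. They held fewer analysed CpGs, with fewer listed neighbours, than the tiles below 20%, a median of 5 against 14 CpGs and of 6 against 16 neighbours. The highest was inside Hoxc6, a thoracic gene, at chr15:103002001-103003000, with 68.8% and 58.2% in WT and 77.8% and 69.8% in KO over 3 CpGs. It contains the 1 Hox CpG above 80%, at chr15:103002061, with 75%, 83.3%, 93.3% and 85.7% on 15 to 21 reads. A tile inside the span of Hoxa3, at chr6:52199001-52200000, measured 55.2% and 51.2% in WT and 39.1% and 51.1% in KO. The tile inside Hoxb1 at chr11:96367001-96368000 measured 38.9% and 39.4% in WT and 38.3% and 45.9% in KO. A further 4 of the 19 tiles lay inside the span of Hoxb3, between 20.1% and 33.4%.

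**Figure D4:**
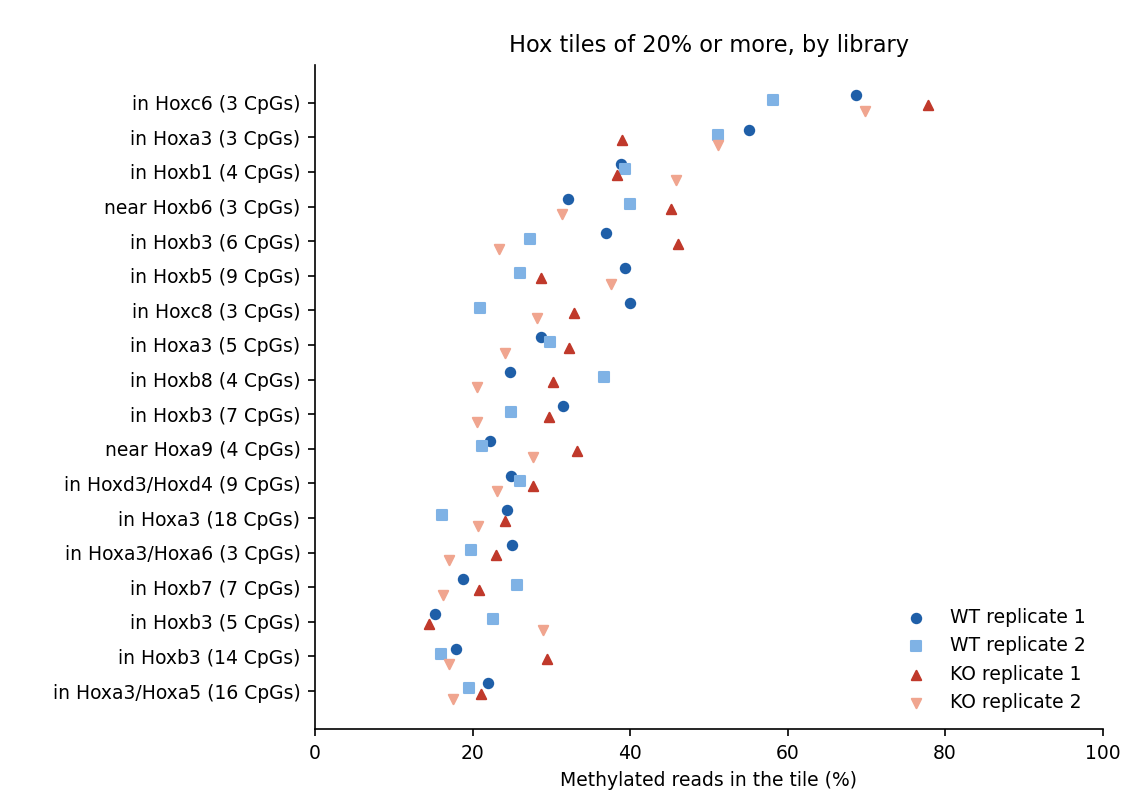
Share of methylated reads in percent (horizontal axis) in 18 of the 19 Hox tiles of 20% or more, each named by its Hox gene with its number of analysed CpGs (vertical axis); markers are the 4 libraries as in the plot of gene regions. KO replicate 1 lies above KO replicate 2 in 14 of the 18 tiles, and the libraries of the genotypes mostly interleave.

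At the gene starts themselves most measured Hox windows had low methylation. RefSeq's table on GRCm38.p6 gave 24 windows, from 250 bases before to 50 after a start, for 22 of the 39 genes. These were matched by symbol. Of the 24 windows 14 had at least 3 analysed CpGs. Among these 14, Hoxb8 alone stood for HoxB and Hoxc4 alone for HoxC, and the rest were of HoxA and HoxD. The median and shares that follow therefore describe mainly HoxA and HoxD. The median of the 14 Hox windows was 3.17%, against 0.644% over the 11291 measured windows of all genes. Of the 14, 12 were below 20%, against 90.9% of all. The lowest was Hoxa13, at 0.462% and 0.732% in WT and 1.25% and 0% in KO.

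The 2 methylated windows were those of Hoxd4 and Hoxb8. Hoxd4 measured 27.2% and 27.8% in WT and 30.6% and 28.2% in KO. The 3 CpGs of the printed Hoxd4 run, at positions -164, -135 and -27 from the start, averaged 23.7%, 31.7% and 36.9%, and the CpG at the start itself 13.3%. Hoxb8, a gene of the trunk that also acts in blood cells, measured 24.8% and 36.7% in WT and 30.2% and 20.6% in KO. Both windows held 4 analysed CpGs. The KO libraries lay above the WT libraries at Hoxd4, by 1.89 points on average, and the genotypes overlapped at Hoxb8.

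Hox starts were richer in CpGs than starts in general, with a median of 14.5 CpGs per 300-base window against 7. The sites CCGG (MspI) and TCGA (TaqI), which read the same on both strands and cannot overlap each other, were searched: 22 of the 24 Hox windows (91.7%) held at least 1, against 60.5% of the 32851 windows in the table. A site makes a window readable by this assay, but 10 of the 24 windows still had fewer than 3 analysed CpGs.

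Between the genotypes no difference in Hox methylation passed the test. A feature was called when the moderated quasi-binomial model gave an adjusted p under 0.05, over all features of its kind in the genome, with a difference of at least 10 percentage points. No Hox gene region was called, 0 of 39, beside 0% of the 27491 gene regions tested. At an unadjusted p under 0.05 there were also 0 of 39 Hox regions, beside 4.8% of all regions. The KO minus WT differences ran from -1.16 percentage points at Hoxc5 to 1.45 at Hoxa5, with 14 genes higher and 25 lower in KO. Of all gene regions 50.3% were higher in KO. Neighbouring Hox regions share CpGs, so the 39 genes are not separate counts of direction. The median Hox difference was -0.122 points, beside 0.0147 over all gene regions. The 95% intervals of the model, over all 39 genes, lay between -5.47 and 4.77 points, so for no Hox region did the interval reach the 10 points that a call needs.

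Hoxa5 had the largest difference upward, from 10.2% ± 0.352 in WT to 11.7% ± 1.40 in KO (SD, n = 2 each), with an adjusted p of 0.987 by the quasi-likelihood test. Both KO libraries lay above both WT libraries. Hoxc5, a gene of the neck and upper trunk, had the largest difference downward, from 6.50% ± 0.120 in WT to 5.34% ± 0.365 in KO (SD, n = 2 each), with the same adjusted p of 0.987. In all, the libraries of the genotypes did not overlap at 13 of the 39 genes, 3 higher and 10 lower in KO, and at 33.6% of all gene regions. The Hox share is thus close to that of all genes.

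The mean over all Hox CpGs was 5.46% ± 0.0307 in WT and 5.42% ± 0.610 in KO (SD, n = 2 each), a difference of -0.0412 points with an exact two-sided permutation p of 1. By cluster the differences were 0.151 points for HoxA, 0.0534 for HoxB, -0.0963 for HoxC and -0.291 for HoxD, with exact permutation p of 1, 1, 1 and 0.667 before any adjustment over the 5 comparisons. With 2 libraries against 2 this test cannot give a p below 0.33. Over Hox CpGs the KO libraries stood further apart than the WT libraries. KO replicate 1 exceeded KO replicate 2 at 27 of the 39 genes, among them 9 of the 11 HoxA genes, whereas WT replicate 1 exceeded WT replicate 2 at 16. Neighbouring genes share CpGs, so these are not separate counts. Over the CpGs of other gene regions the SD was 0.139 in WT and 0.0210 in KO (n = 2 each), so the KO libraries were the closer ones there. The part of the Hox library difference in the genotype values was not tested.

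Among tiles 0 of 206 in the Hox regions were called, beside 0.0788% of all tiles. At an unadjusted p under 0.05 there were 15 (7.28%), 10 higher and 5 lower in KO, beside 5.78% of all. The tile of smallest p lay in the span of Hoxa3, at chr6:52177001-52178000 over 16 CpGs, and measured 6.33% and 5.18% in WT and 14.97% and 10.7% in KO. Both KO libraries exceeded both WT libraries there, with a difference of 7.08 points, an interval from 3.38 to 10.96 and an adjusted p of 0.246 by the quasi-likelihood test. In the tile shared by Hoxb3 and the antisense transcript Hoxb3os, at chr11:96344001-96345000 over 14 CpGs, the levels were 17.9% and 15.95% in WT and 29.5% and 17.1% in KO. KO replicate 1 alone stood apart in it. Its adjusted p was 0.769 by the quasi-likelihood test with all 4 libraries. Without KO replicate 2 the difference was 12.6 points. Without KO replicate 1 the difference was 0.132 points. At the Hoxa3 tile the difference without KO replicate 2 was 9.22 points, short of the 10 points of a call. Such fits leave 1 KO library and hold no spread between KO libraries, so their p-values are not given.

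The other tiles of small p were in the Hoxa5 and Hoxa6 overlap, at the end of Hoxd4 and in Hoxb6. The first, at chr6:52204001-52205000 over 55 CpGs, measured 3.55% and 5.73% in WT and 8.43% and 5.11% in KO. Its adjusted p was 0.784 by the quasi-likelihood test with all 4 libraries, and its difference was 3.79 points without KO replicate 2. The Hoxd4 tile, at chr2:74729001-74730000 over 4 CpGs, measured 19.5% and 28.2% in WT and 12.1% and 14.5% in KO, a difference of -10.6 points with both KO libraries below both WT libraries and an adjusted p of 0.789. The Hoxb6 tile, at chr11:96300001-96301000 over 10 CpGs, measured 12.4% and 16.1% in WT and 22.7% and 16.3% in KO. In 2 of these 3 tiles KO replicate 1 was the highest library.

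**Figure D5:**
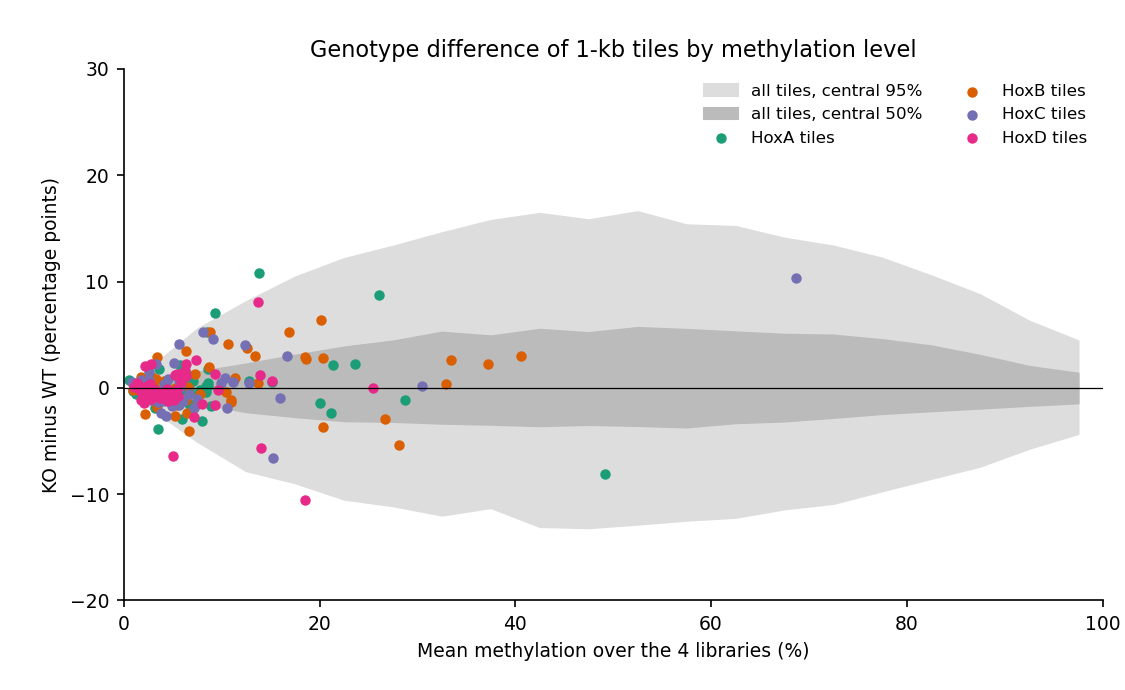
KO minus WT difference in percentage points (vertical axis) against mean methylation over the 4 libraries in percent (horizontal axis) for the 206 Hox tiles, coloured by cluster; the shading gives the central 50% and 95% of all tiles of like level. Most Hox tiles crowd below 20% methylation near a difference of 0, and the extremes are -10.6 and 10.8 points.

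The size of the difference rises with the level of a tile, so Hox tiles were set beside all tiles of like level. Below 5% the median size was 0.601 points for 96 Hox tiles and 0.292 for all. From 5% to 10% it was 1.30 for 64 Hox tiles and 1.45 for all, from 10% to 20% it was 1.94 for 27 Hox tiles and 2.53 for all, and from 20% to 80% it was 2.57 for 19 Hox tiles and 3.99 for all. These medians are descriptions without a test, and levels within the lowest class may still differ.

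Of single CpGs 0 of the 3126 tested in Hox regions were called, beside 0.00839% of all CpGs tested. At an unadjusted p under 0.05 there were 106 (3.39%), 48 higher and 58 lower in KO, beside 4.01% of all. The smallest p belonged to a CpG in Hoxd12, a limb gene, at chr2:74676472, with 0% and 0% methylated in WT and 16.7% and 6.25% in KO, on 35 to 64 reads. A CpG in the span of Hoxa3 at chr6:52171566 had 4.65% and 7.5% in WT and 22.6% and 21.8% in KO, on 40 to 55 reads. A CpG near Hoxa11, a forelimb gene, at chr6:52246546 had no methylated read in either WT library and levels of 8.51% and 9.43% in KO. The CpG at chr15:102938461 in Hoxc12 had 5.41% and 12.9% in WT and 0% in both KO libraries, and that at chr2:74740699 in Hoxd3 had 13.5% and 2.78% in WT and 0% in both KO libraries. All 5 had an adjusted p of 0.782 in the same model. At these depths a methylated share of 0 is a few reads away from the values beside it, and an absent call does not show that the levels of a CpG were alike.

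Genes next to the clusters, cofactors and regulators were tested in the same model, and none was called, beside 0% of all gene regions tested. Of 24 flanking and intergenic genes 17 had a region, with a median WT level of 8.35%, a median difference of 0.00985 points, 9 higher and 8 lower. The largest differences were at Lnpk, beside HoxD, from 8.35% ± 0.475 in WT to 5.78% ± 0.635 in KO, at Skap1, beside HoxB, from 72.2% ± 0.858 to 74.7% ± 0.482, and at Skap2, beside HoxA, from 41.2% ± 2.61 to 43.6% ± 0.824 (SD, n = 2 each). The 7 noncoding RNAs of the list within or beside the clusters had WT means of 2.98% at Hottip, 4.46% at Haglr, 4.76% at Hotairm1, 4.81% at Hoxa11os, 5.36% at Hotair, 6.40% at Hoxb3os and 10.04% at Hoxb5os, inside the range of the Hox genes. The regions around the 6 microRNA genes of the clusters measured from 3.31% at Mir10a to 8.83% at Mir196a-1 in single libraries.

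The 9 genes of the TALE family, homeodomain partners of Hox proteins on DNA, had a median WT level of 26.6%, with 4 higher and 5 lower in KO and a median difference of -0.0460 points. Their largest differences were 1.86 points at Meis3, 0.971 at Pbx4 and -0.816 at Pknox1. The 6 ParaHox genes, the sister family of the Hox genes, had a median WT level of 6.35%. Gsx1, Cdx2, Gsx2 and Pdx1 were at 2.60%, 3.18%, 3.73% and 8.97% in WT, inside the range of the Hox genes, and Cdx1 and Cdx4 at 32.5% and 37.5%, above every Hox gene. Of the 6, 1 was higher and 5 lower in KO, with largest differences of -3.99 points at Cdx4, -1.34 at Cdx1 and -0.998 at Pdx1. The 25 Polycomb and Trithorax regulators, which repress or keep active the Hox clusters, had a median WT level of 20.9%, with 13 higher and 12 lower and a median difference of 0.0821 points. Cbx7, a subunit that reads a repressive histone mark, went from 25.3% ± 0.234 in WT to 28.9% ± 1.13 in KO (SD, n = 2 each), with an adjusted p of 0.987. Wdr5 differed by -3.99 points and Cbx6 by -3.10. At an unadjusted p under 0.05 these lists held 1 of 17 flanking genes, Skap1, and 1 of 25 regulators, Cbx7. There were 0 of 9 TALE genes and 0 of 6 ParaHox genes, and the share over all gene regions tested was 4.8%. Neither Skap1 nor Cbx7 passed the adjustment.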

How the data were processed

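For every library the authors deposited 2 tracks on mm10, 1 of methylation and 1 of depth, made with GBSA per the file headers. BWA 0.7.12 and MACS appear in the submitters' processing notes with no stated role, and the sources used here give no further steps. Each deposited value is a score: a level from 0 to 1, or a read depth, negative where the cytosine is on the reverse strand. Multiplying level by depth gave a whole number everywhere (100%, tolerance 1e-06) and so the methylated reads.

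Strands were summed per CpG, and a CpG entered with a minimum of 10 reads in all 4 libraries. Gene regions (RefSeq, GRCm38.p6, gene body and 2 kb either side) and 1-kb tiles needed 3 such CpGs. A quasi-binomial model of genotype was fitted genome-wide to CpGs, tiles and regions separately. Pearson dispersion was shrunk with limma 3.58.1 and held at 1 or above, with the prior from features whose binomial variance reached 5 reads in all libraries. Tests were two-sided quasi-likelihood F tests with Benjamini-Hochberg adjustment. The model was tested on simulated data. R 4.3.3, pandas 2.3.3 and matplotlib 3.10.9 were used.

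All 39 genes enter the counts, means and medians; values of 1 gene are not reported here. Named with values are called features, the highest and lowest gene of each cluster, the largest difference each way, the 5 CpGs and 5 tiles of smallest p with 20 reads or more in all libraries, and 3 members per related list by size of difference. Further members are described for their level. The genes, lists and tests were chosen with earlier results of these data known. Amplified reads are not independent molecules.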

Additional observations from a re-analysis of the deposited data

How the results depend on the processing

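The count of called Hox gene regions was 0 under all alternatives tried: coverage minimums of 5 and 20 reads, a prior for the spread from all features, limma on log2 read ratios, the replicate block, no minimum difference, gene bodies alone, 5 kb either side and each library left out. Called Hox CpGs were also 0 under those that apply to them. Called Hox tiles ranged from 0 to 1 when single libraries were left out, the 1 being the Hoxb3 tile without KO replicate 2, at a difference of 12.6 points. In that setting the differences at 2 more Hox tiles, in the spans of Hoxa3 and of Hoxa5 and Hoxa6, were 9.22 and 3.79 points. That fit leaves 1 KO library and so holds no spread between KO libraries. Differences of gene regions changed sign in 67 of 468 alternatives, none with a call. The mean difference over all Hox CpGs ranged from -0.472 to 0.390 points with single libraries left out. Pairing libraries by number leaves this mean at -0.0412 by construction, so it is no further check. For HoxB the mean difference was 0.605 points at a minimum of 5 reads. Same-numbered libraries did not deviate together (r = -0.00844 over all tiles), and the replicate block gave 0 called Hox CpGs, 0 tiles and 0 regions. With 2 libraries per genotype and a median of 21 to 25 reads per CpG, even large differences could be missed. In the simulated data, changes were set at features of intermediate methylation. Calls recovered 1.52% of CpGs changed by 30 points, 38.8% of tiles changed by 20 points and 2.99% changed by 10. Of gene regions changed by 10 points 38.8% were recovered. Most Hox features have lower levels, so these shares need not hold for them. Intervals cover these libraries only. Cytosines outside the enzymes' fragments were not measured.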
